A study of Homo sapiens with 20 samples.

Results

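The 9 genes described here are *CDX2*, *SI*, *VIL1*, *CDH17*, *GUCY2C*, *LGALS4*, *FABP1*, *TFF1* and *TFF3*, which are widely used to recognise intestinal epithelium. They were chosen by name, and each matched 1 Ensembl identifier among the 60624 listed for human islet-like organoids (hILOs) and the 60623 listed for pancreatic progenitors (PPs). Both cell populations were grown from MEL1 human embryonic stem cells, which the methods describe as a line that also carries a GFP reporter in 1 copy of the insulin gene. WT cells were compared with A5-KO cells, in which CRISPR-Cpf1 was aimed at the first exon of *ALKBH5*, the gene of an enzyme that removes N6-methyladenosine from mRNA. A5-KO lines were grown from picked colonies, so a difference between the genotypes is also a difference between cell lines. PPs had received differentiation media through day 14 and were collected at 0 h, without actinomycin D, or after 1, 2 or 3 h with 1 μg/ml of this inhibitor of transcription. The media of hILOs are labelled through day 22, whereas the methods describe a longer culture, and no treatment followed. RNA-seq was done on 2 libraries for each genotype and condition, 4 of hILOs and 16 of PPs. Replicates are called biological in the methods, but the labels do not say that they came from separate differentiations, so the tests measure the spread between these libraries.

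Intestinal epithelium and pancreas are both made from the endoderm, the inner layer of the embryo, and the homeodomain factor CDX2 is the gene product best known for setting intestinal identity there. Absorptive cells of the gut carry a brush border, a lawn of microvilli held up by actin bundles and covered by digestive enzymes and receptors, while goblet cells between them secrete mucins together with trefoil peptides. None of the 9 genes is restricted to the gut: *FABP1* is also abundant in liver, *TFF1* is typical of the stomach surface, and *VIL1* is expressed in other epithelia with microvilli.

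*CDX2* (chromosome 13, 27960918 to 27969315, minus strand of GRCh38) encodes the transcription factor named above. *SI* (chromosome 3, 164978898 to 165078496, minus strand) encodes sucrase-isomaltase, the enzyme of the brush border that splits sucrose, and is a textbook target of CDX2. *FABP1* (chromosome 2, 88122982 to 88128062, minus strand) encodes the liver type of fatty acid binding protein, and *LGALS4* (chromosome 19, 38801671 to 38812945, minus strand) encodes galectin-4, a lectin of the gut epithelium. The starts of 4 of the 9 genes were found in the RefSeq table of promoters (GRCh38.p14). Those of *SI*, *FABP1* and *LGALS4* are printed 5′ to 3′ on the strand of the gene, from 250 bases before the start to 50 after it, because these mRNAs are compared below with that of *CDX2*. Capitals mark matches to the motifs searched.
SI: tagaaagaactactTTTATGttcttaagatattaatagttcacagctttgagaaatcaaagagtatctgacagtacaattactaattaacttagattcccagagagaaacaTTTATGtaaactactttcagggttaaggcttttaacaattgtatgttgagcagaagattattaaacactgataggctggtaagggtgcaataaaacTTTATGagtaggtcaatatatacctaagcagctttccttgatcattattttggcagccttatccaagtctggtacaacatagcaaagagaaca
FABP1: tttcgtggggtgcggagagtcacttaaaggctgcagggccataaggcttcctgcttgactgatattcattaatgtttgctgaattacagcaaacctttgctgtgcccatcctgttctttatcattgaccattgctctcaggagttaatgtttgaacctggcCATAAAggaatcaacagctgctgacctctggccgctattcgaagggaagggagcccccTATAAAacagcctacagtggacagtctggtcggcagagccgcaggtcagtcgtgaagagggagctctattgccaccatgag
LGALS4: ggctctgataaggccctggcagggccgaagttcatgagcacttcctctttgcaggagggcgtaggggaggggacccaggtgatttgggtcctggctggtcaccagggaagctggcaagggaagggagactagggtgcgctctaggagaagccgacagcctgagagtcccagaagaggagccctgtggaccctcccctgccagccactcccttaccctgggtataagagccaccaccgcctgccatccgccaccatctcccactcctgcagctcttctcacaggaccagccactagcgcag
The windows are chr3:165078447-165078746, chr2:88128013-88128312 and chr19:38812896-38813195, all on the minus strand. The motifs TTTATG for CDX2, AGATAA for GATA factors, CAAAGTCCA for HNF4, TATAAA for the TATA box and a palindrome-like site of HNF1 were searched on both strands without a mismatch. The first and the fourth share letters and can overlap. The *SI* window held TTTATG 3 times on the strand of the gene, its first bases 236, 139 and 43 bases before the start. The *FABP1* window held the CDX2 motif 1 time on the opposite strand, 89 bases before the start, and a TATA box 31 bases before it. The *LGALS4* window held no match. The *CDX2* window (chr13:27969266-27969565, minus strand) held 1 GATA motif on the opposite strand. Of 35116 promoter windows of this length, 10.6% held the CDX2 motif, 10.3% the GATA motif, 11.5% the TATA box, 0.322% the HNF1 motif and 0.384% the HNF4 motif. A match is a description of letters and not a binding site.

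The remaining genes encode an actin-bundling protein, proteins of the cell surface and secreted peptides. *VIL1* (chromosome 2, 218419121 to 218453295, plus strand) encodes villin, which bundles actin in microvilli. *CDH17* (chromosome 8, 94127162 to 94217303, minus strand) encodes the cadherin of liver and intestine, an adhesion protein. *GUCY2C* (chromosome 12, 14612632 to 14696599, minus strand) encodes guanylate cyclase C, the receptor of guanylin and uroguanylin. *TFF1* (chromosome 21, 42362282 to 42366535) and *TFF3* (chromosome 21, 42311667 to 42315409) lie near each other on the minus strand and encode trefoil peptides of gastric surface cells and goblet cells, respectively. The exons of *VIL1* share 3045 of 6891 bases with *USP37* on the other strand, and those of *GUCY2C* share 515 of 4191 bases with *PLBD1-AS1* on the other strand. Whether strand was used in counting was not given in the sources used here, so such reads cannot be told apart.

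The labels were checked with *ALKBH5* itself. It measured 78.8 and 81.9 TPM in WT hILOs, against 4.16 and 3.42 TPM in A5-KO hILOs, and in untreated PPs it fell by 3.01 on the log2 scale (limma adjusted *p* = 1.5e-06). PPs at 0 h held between 153 and 199.9 CPM of *PDX1* and between 241 and 367 CPM of *NKX6-1*, both factors of pancreatic progenitors, while *PTF1A* was too low to be tested at either stage. WT hILOs held 13033 and 12978 TPM of *INS* and A5-KO hILOs 7605 and 7606 TPM. PP libraries held between 30516384 and 35206514 reads over genes. The depth of the hILO libraries is unknown because TPM, in which values are scaled by gene length and by the library total, does not keep it. The deposited TPM summed to 924887 and 922614 in WT hILOs and to 897038 and 887320 in A5-KO hILOs, and were not rescaled in the reported fit. The median log2 difference between replicates was 0.196 for WT PPs at 2 h and 0.066 to 0.147 for the other PP conditions. At 2 h the WT replicates also differed from each other in *CDX2* (69.9 and 153 CPM) and *PDX1* (23.6 and 71.1 CPM). At 3 h the WT libraries lay above the A5-KO libraries in both genes, as given below. In WT, *ALKBH5* fell from 149 and 172 CPM at 0 h to 48.3 and 33.7 CPM at 3 h.

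In hILOs all 9 genes were expressed, and the genotypes differed most in *SI* and *TFF1*, in opposite directions. Levels in TPM can be compared between genes. In WT hILOs the order was *FABP1*, *CDH17*, *TFF1*, *VIL1*, *LGALS4*, *TFF3*, *GUCY2C*, *CDX2* and *SI*, from 1589 ± 39.8 TPM for *FABP1* down to 22.1 ± 0.41 TPM for *SI* (mean ± s.d., *n* = 2 biological replicates). The libraries of *VIL1* and *LGALS4* overlapped in this order, as did those of *TFF3* and *GUCY2C*. In A5-KO hILOs *TFF1* stood lower, between *TFF3* and *CDX2*, and *SI* was still last, with 66.0 ± 0.070 TPM next to 69.4 ± 2.76 TPM of *CDX2*. A gene was called changed when its limma adjusted *p* (Benjamini-Hochberg, over 17300 genes) was below 0.05 and its change was over 1.5-fold on the log2(TPM + 1) scale.

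**Figure D1:**
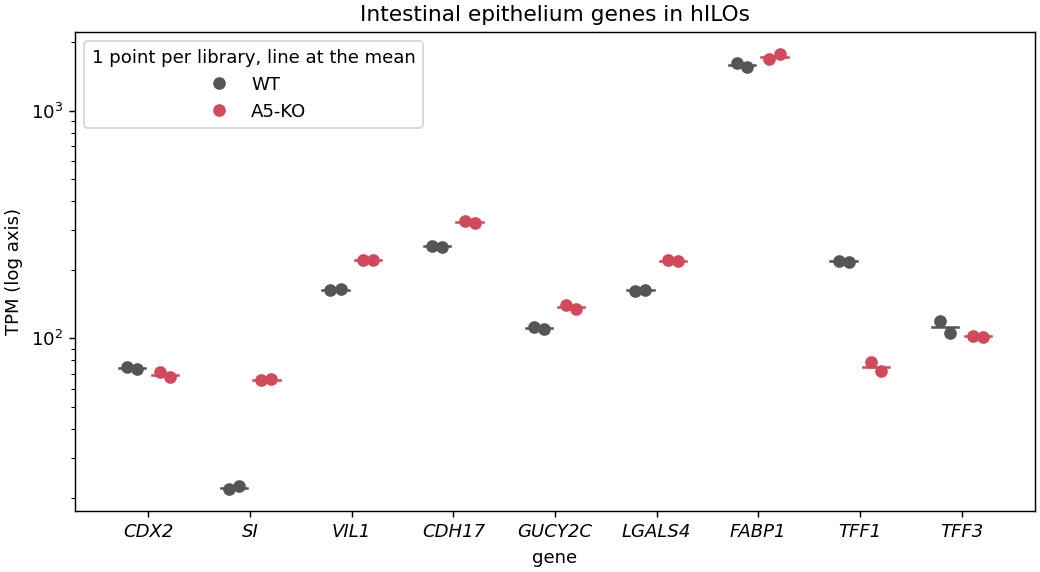
TPM of each gene (log axis) in hILO libraries of WT (grey) and A5-KO (red). Points are libraries and lines are means of 2 libraries; both A5-KO points of *SI* lie above both WT points, and both A5-KO points of *TFF1* lie below both WT points.

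*SI* measured 21.8 and 22.4 TPM in WT, against 65.9 and 66.0 TPM in A5-KO. Replicates were nearly equal and the genotypes far apart. *SI* thus rose 2.90-fold in A5-KO hILOs (log2 difference 1.53, standard error 0.057, limma adjusted *p* = 0.0025). *TFF1* measured 218.9 and 216.3 TPM in WT, against 78.5 and 71.6 TPM in A5-KO. This gene fell by 1.52 on the log2 scale (standard error 0.059, limma adjusted *p* = 0.0026), so that A5-KO kept 0.348 of the WT level. *SI* and *TFF1* were the only members called, 1 of 9 higher and 1 of 9 lower, where 2.7% of all tested genes were called higher and 4.09% lower.

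The brush border and surface genes *VIL1*, *LGALS4*, *CDH17* and *GUCY2C* were higher in A5-KO hILOs at an adjusted *p* below 0.05, each by less than 1.5-fold. *VIL1* measured 163 and 164 TPM in WT, against 221.9 and 220.2 TPM in A5-KO (log2 difference 0.43, standard error 0.035, limma adjusted *p* = 0.0083). Its antisense neighbour *USP37* was at 5.77 to 7.23 TPM with no order between the genotypes. *LGALS4* went from 162 and 163 TPM to 220.5 and 219 TPM, a difference of the same size (log2 0.43, limma adjusted *p* = 0.0084). *CDH17* measured 254 and 253 TPM in WT, against 327 and 321 TPM in A5-KO (log2 difference 0.35, limma adjusted *p* = 0.011). *GUCY2C* showed the least of these differences, with 112 and 109.6 TPM in WT against 139.7 and 134 TPM in A5-KO (log2 0.31, limma adjusted *p* = 0.026). Counted by the adjusted *p* alone, 5 of 9 members were higher and 1 was lower, where the shares of all tested genes were 5.27% and 7.32%. With 3 libraries in place of 4 the adjusted *p* of these 4 genes was between 0.058 and 0.12, whichever library was left out, while their differences stayed between 0.28 and 0.44.

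*CDX2* did not follow the genes of the brush border in hILOs. It measured 74.9 and 73.7 TPM in WT, against 71.3 and 67.4 TPM in A5-KO, a log2 difference of -0.10 (standard error 0.053) that did not pass the test (limma adjusted *p* = 0.29). *TFF3*, with 119 and 105 TPM in WT against 102.7 and 101 TPM in A5-KO, did not pass either (log2 -0.13, limma adjusted *p* = 0.30). *FABP1*, the most abundant of the 9 mRNAs, measured 1617 and 1561 TPM in WT, against 1681 and 1772 TPM in A5-KO (log2 0.12, limma adjusted *p* = 0.13). With quantile normalization *FABP1* had an adjusted *p* of 0.021. The median log2 difference of the 9 genes was 0.31, against -0.06 over all tested genes. In these bulk libraries, fewer cells that express a gene and less of its RNA in each cell cannot be told apart.

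In PPs at 0 h *GUCY2C* was called higher in A5-KO, and *TFF3* and *TFF1* were called lower. The deposited unit is CPM, the reads of a gene relative to the library total and not to gene length, and 3 of the 9 genes were low, with 25 reads of *SI* in each WT library. Between genes, levels were compared as CPM per kilobase of exon. *TFF1* led in WT with 100.1, ahead of *CDH17* with 70.5, and the last 3 were *GUCY2C* with 1.88, *LGALS4* with 1.68 and *SI* with 0.122. In WT the libraries of *FABP1* and *CDX2* overlapped, those of *CDX2* and *TFF3* did, and those of *GUCY2C* and *LGALS4* did. In A5-KO *CDH17* led with 96.5 CPM per kilobase, followed by *TFF1* and *CDX2*, whose libraries overlapped, and *TFF3* lay below *VIL1*.

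**Figure D2:**
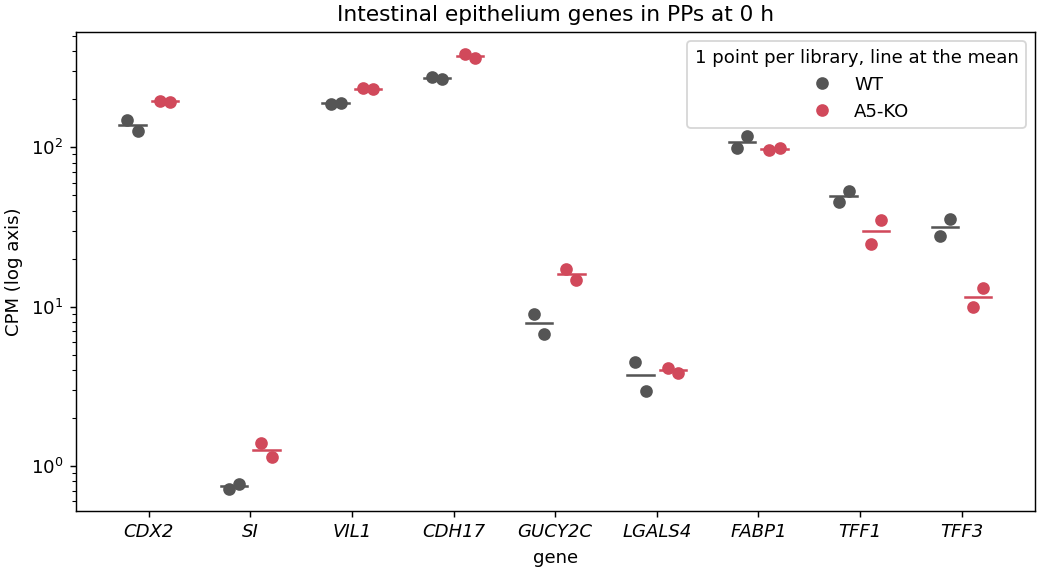
CPM of each gene (log axis) in PP libraries at 0 h, WT in grey and A5-KO in red. Points are libraries and lines are means of 2 libraries; *SI*, *GUCY2C* and *LGALS4* lie below 20 CPM, and both A5-KO points of *TFF3* lie below both WT points.

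*TFF3* measured 27.9 and 35.2 CPM in WT PPs, against 10.0 and 13.1 CPM in A5-KO PPs. The genotypes did not overlap, and *TFF3* fell by 1.38 on the log2(CPM + 1) scale (standard error 0.16, limma adjusted *p* = 0.0018). *TFF1*, its neighbour on chromosome 21, measured 45.6 and 52.9 CPM in WT, against 24.8 and 34.9 CPM in A5-KO, and it fell by 0.72 (standard error 0.16, limma adjusted *p* = 0.034). *GUCY2C* measured 9.04 and 6.72 CPM in WT, against 17.2 and 14.6 CPM in A5-KO. It rose 1.92-fold (log2 0.94, standard error 0.17, limma adjusted *p* = 0.016). The antisense gene *PLBD1-AS1* held 6 to 25 reads in these libraries against 217 to 557 of *GUCY2C*. Thus 1 of 9 members was called higher, where 1.57% of all 13911 tested genes were, and 2 of 9 were called lower, where 1.13% were. *TFF3* was called in every alternative fit, but without WT replicate 2 the adjusted *p* was 0.16 for *TFF1* and 0.085 for *GUCY2C*, and without A5-KO replicate 1 it was 0.066 and 0.058. When genes of low values were kept in the fit, it was 0.16 (*TFF1*) and 0.0995 (*GUCY2C*).

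*CDX2*, *CDH17* and *VIL1* were higher in A5-KO PPs at an adjusted *p* below 0.05 but by less than 1.5-fold. *CDX2* measured 149 and 126 CPM in WT, against 195 and 192 CPM in A5-KO (log2 0.49, standard error 0.089, limma adjusted *p* = 0.016). *CDH17* measured 277 and 269.7 CPM in WT, against 384 and 364 CPM in A5-KO (log2 0.45, standard error 0.068, limma adjusted *p* = 0.0065). *VIL1* measured 186 and 190.1 CPM in WT, against 234 and 231 CPM in A5-KO (log2 0.30, standard error 0.069, limma adjusted *p* = 0.043). In each of these genes both A5-KO libraries lay above both WT libraries. By the adjusted *p* alone 4 of 9 members were higher and 2 lower, where 2.16% and 2.05% of all tested genes were. Without WT replicate 2 the adjusted *p* was 0.20 for *CDX2*, 0.093 for *CDH17* and 0.31 for *VIL1*. For *CDX2* it was also 0.26 with all 16 libraries in one limma fit and 0.093 when genes of low values were kept. For *VIL1* it was 0.30 without WT replicate 1, 0.071 without A5-KO replicate 1, 0.071 after median-of-ratios scaling and 0.14 when genes of low values were kept, and on the reads recovered from the CPM it was 0.10 in edgeR and 0.067 in DESeq2.

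*SI*, *LGALS4* and *FABP1* did not pass the test in PPs at 0 h. *SI* measured 0.718 and 0.775 CPM in WT, against 1.39 and 1.14 CPM in A5-KO, which are 25 and 25 reads against 45 and 39 (log2 0.37, limma adjusted *p* = 0.35). *LGALS4* measured 4.51 and 2.97 CPM in WT, against 4.11 and 3.84 CPM in A5-KO, so both A5-KO libraries lay between the WT libraries (limma adjusted *p* = 0.85). *FABP1* measured 99.1 and 118 CPM in WT, against 96.0 and 99.1 CPM in A5-KO (log2 -0.15, limma adjusted *p* = 0.45). The median log2 difference of the 9 genes was 0.30, against 0.03 over all tested genes.

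**Figure D3:**
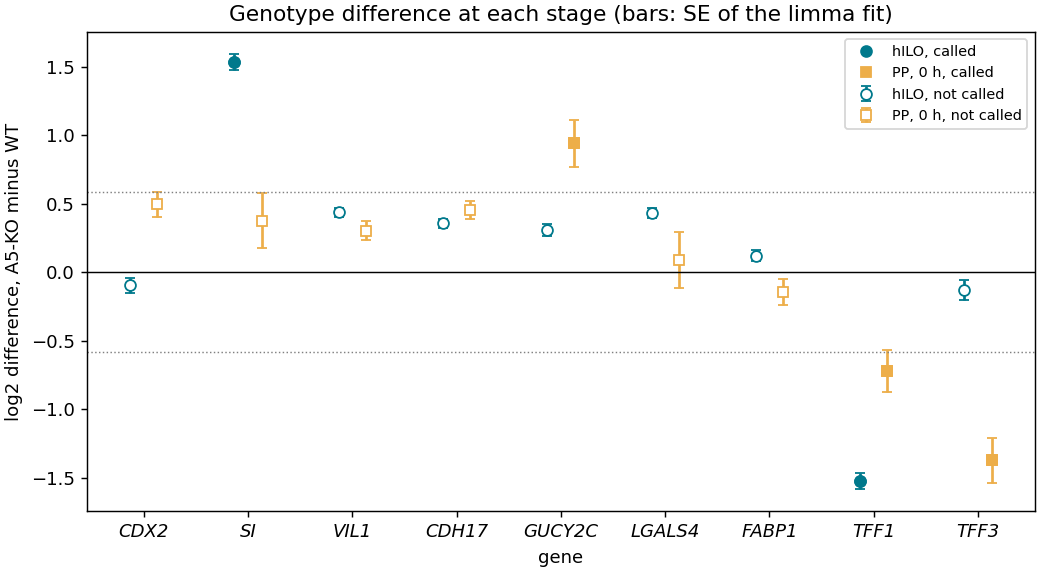
Log2 difference between A5-KO and WT of each gene in hILOs (blue circles) and PPs at 0 h (yellow squares), with the standard error of the limma fit as bars and 1.5-fold as dotted lines; filled symbols were called. *SI* and *TFF1* were called in hILOs, and *GUCY2C*, *TFF1* and *TFF3* in PPs.

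Side by side, *VIL1*, *CDH17* and *GUCY2C* were higher in A5-KO at both stages by the adjusted *p*, and *TFF1* was lower at both, by 1.52 in hILOs and 0.72 in PPs on the log2 scale. In hILOs *VIL1*, *CDH17* and *GUCY2C* no longer passed whichever library was left out. In PPs these genes and *TFF1* did not pass in some of the fits named above. *CDX2* passed in PPs, though not in the fits named above, and did not pass in hILOs, while *SI* and *LGALS4* passed in hILOs and not in PPs. The stages were deposited in different units and were not tested against each other.

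The course of actinomycin D was used to ask whether the mRNAs were lost at different rates in the genotypes. Because CPM is relative to the total of each library, which itself falls under the inhibitor, an mRNA more stable than most rises in CPM. The paper, using added control RNA (spike-ins), reports shorter mRNA half-lives in A5-KO PPs than in WT PPs. The totals may therefore fall at different rates in the genotypes, which would shift differences in CPM under the inhibitor. This was not tested. *VIL1*, *CDH17*, *GUCY2C*, *SI*, *LGALS4* and *FABP1* had positive slopes in both genotypes. They ran from 0.025 for *FABP1* in WT to 0.37 for *SI* in A5-KO on the log2 scale per h. *CDX2* was the only gene of the 9 with a negative slope in A5-KO, while in WT its slope of -0.11 was close to the -0.12 of *TFF3*. The A5-KO libraries held 195 and 192 CPM at 0 h, then 169 and 162 CPM (1 h), 82.3 and 82.8 CPM (2 h) and finally 41.4 and 36.9 CPM (3 h), when 21.4% and 19.1% of the 0 h mean remained. The WT libraries held 106 and 122 CPM after 1 h, then 69.9 and 153 CPM (2 h) and 111 and 107 CPM (3 h), and the last of these are 81.0% and 78.0% of the 0 h mean. A5-KO libraries thus lay above WT at 0 and 1 h, between the unequal WT replicates at 2 h, and below WT at 3 h.

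The slope of *CDX2* was -0.79 per h in A5-KO and -0.11 per h in WT on the log2 scale (standard error 0.086 each), which correspond to half-lives of 1.26 and 8.96 h relative to the total of the library. The WT slope was little larger than its standard error, and the loss was not steady over time, so both half-lives are rough. The slopes differed by -0.68 (standard error 0.12, limma adjusted *p* = 0.036 over 13620 genes). Of the 9 genes, 1 (*CDX2*) had slopes that were called different, where 2.61% of all tested genes had a called lower slope in A5-KO and 0.0661% a higher one. The difference varied with the times used. It was 0.05 with 0 and 1 h only (limma adjusted *p* = 0.92), -0.41 with 0, 1 and 2 h (limma adjusted *p* = 0.41) and -0.66 with 0 and 3 h only (limma adjusted *p* = 9.4e-05). It kept nearly its size when libraries were left out, but not always its call: it was -0.59 without both WT libraries at 3 h (limma adjusted *p* = 0.77), a fit in which 0 of all genes passed, and -0.69 without both WT libraries at 2 h (limma adjusted *p* = 0.0028). Without WT replicate 1 it was -0.75 (0.0050), without WT replicate 2 -0.61 (0.54), without A5-KO replicate 1 -0.70 (0.40) and without A5-KO replicate 2 -0.66 (0.32), with the limma adjusted *p* in parentheses. Without WT replicate 2, A5-KO replicate 1 or A5-KO replicate 2, 0 of all genes passed in either direction. The same held when genes of low values were kept, where the limma adjusted *p* of *CDX2* was 0.086. The paper reports that *PDX1* mRNA was less stable in A5-KO PPs. It measured 43.7 and 50.5 CPM in WT after 1 h, against 53.3 and 51.4 CPM in A5-KO. After 2 h it measured 23.6 and 71.1 CPM in WT, against 18.9 and 21.9 CPM in A5-KO. After 3 h the WT libraries held 49.1 and 66.4 CPM of it and the A5-KO libraries 12.7 and 11.5 CPM. The part of the WT libraries in the difference of *CDX2* was not tested beyond these fits.

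**Figure D4:**
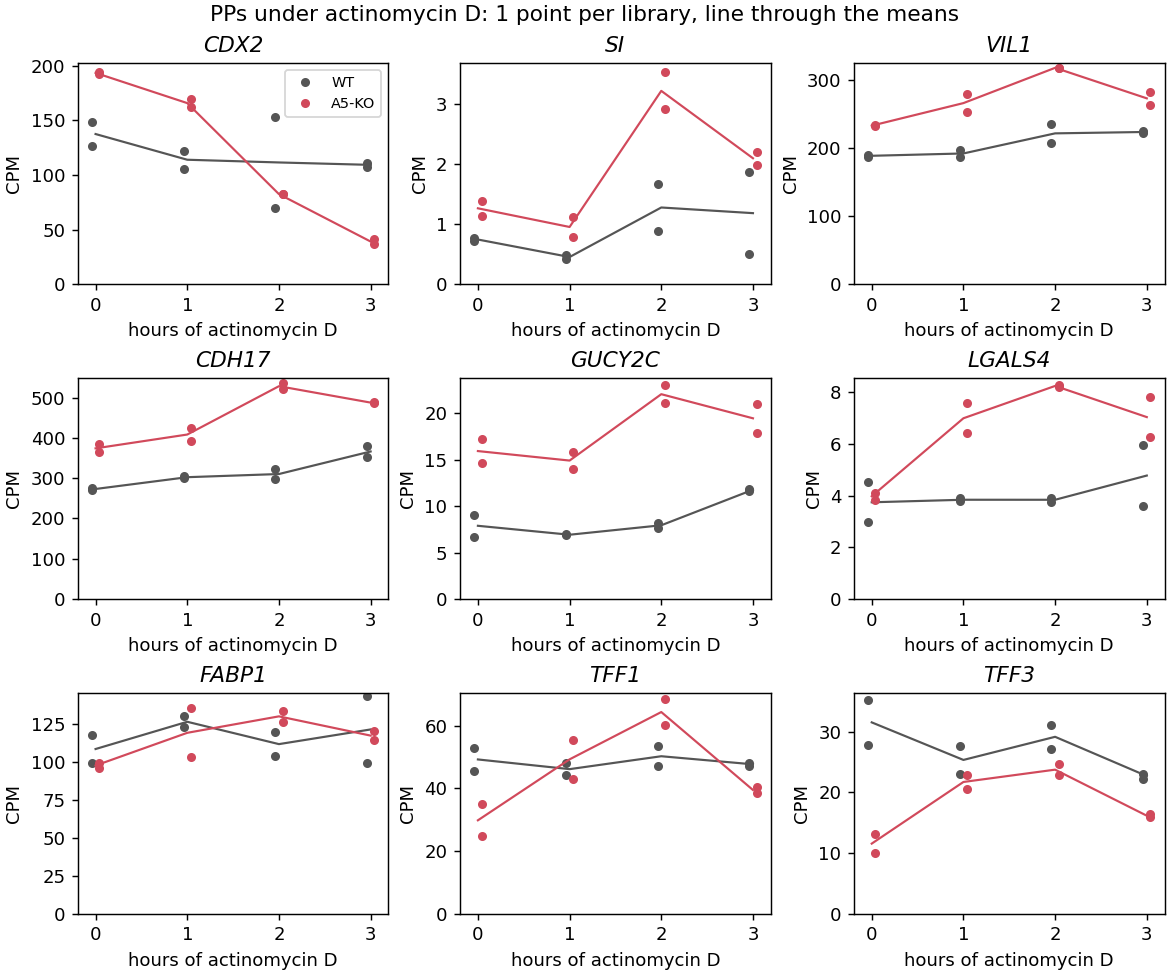
CPM of each gene in PPs against hours of actinomycin D (0 to 3 h), with 1 point per library and lines through the means of 2 libraries, WT in grey and A5-KO in red. *CDX2* declines in A5-KO to 36.9 CPM, while *GUCY2C*, *CDH17*, *VIL1* and *SI* of A5-KO stay above WT at every time.

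At every one of the 4 times both A5-KO libraries lay above both WT libraries for *SI*, *VIL1*, *GUCY2C* and *CDH17*, 4 of 9 members, where 3.21% of the 13620 genes did so. *TFF3* was the 1 member with both A5-KO libraries below both WT libraries at every time, which held for 3.68% of genes. The 4 times share cell lines and are not independent. *GUCY2C* at 3 h measured 11.9 and 11.7 CPM in WT, against 21.0 and 17.9 CPM in A5-KO. *CDH17* at 2 h measured 322 and 299 CPM in WT, against 536 and 521 CPM in A5-KO, the widest gap of this gene. *SI*, with 13 to 121 reads in each library, went from 45 and 39 reads at 0 h to 121 and 89 reads at 2 h in A5-KO, and in WT from 25 and 25 to 52 and 30 reads. At 3 h it had 70 and 70 reads in A5-KO and unequal WT replicates, 17 and 59 reads, so the separation was narrow.

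Both trefoil genes had higher values at 1 h than at 0 h in A5-KO. After 1 h *TFF3* measured 20.6 and 22.8 CPM in A5-KO, where 0 h had given 10.0 and 13.1 CPM. In WT the same times gave 27.7 and 23.1 CPM, and 27.9 and 35.2 CPM before. Over all 4 times its slopes were 0.16 in A5-KO and -0.12 in WT, a difference of 0.28 (standard error 0.14) that did not pass (limma adjusted *p* = 0.23). With 0 and 1 h only, the difference was 1.23 per h (limma adjusted *p* = 0.029), and with 0 and 3 h only it was 0.32 (limma adjusted *p* = 0.011). *TFF1* in A5-KO reached 43.1 and 55.5 CPM after 1 h. After 2 h it reached 60.4 and 68.5 CPM, above the 53.6 and 47.0 CPM of WT, and after 3 h it was back to 38.6 and 40.4 CPM, below the 48.1 and 47.3 CPM of WT. Its slope difference was 0.17 (limma adjusted *p* = 0.48).

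*LGALS4*, level between the genotypes at 0 h, measured 6.41 and 7.57 CPM in A5-KO after 1 h, against 3.77 and 3.90 CPM in WT. At 3 h the A5-KO libraries held 7.81 and 6.26 CPM and the WT libraries 3.61 and 5.94 CPM. Its slopes differed by 0.17 (limma adjusted *p* = 0.50). *FABP1* stayed between 96.0 and 143 CPM in all 16 libraries, with a slope difference of 0.07 (limma adjusted *p* = 0.64). The slope differences of *VIL1*, *CDH17*, *GUCY2C* and *SI* lay between -0.05 and 0.14, and none passed (limma adjusted *p* from 0.81 to 0.998). Over all 9 genes the median slope difference was 0.07, against -0.07 over all tested genes.

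The gene whose log2 CPM was most like that of each member over the 16 PP libraries, searched among 8920 genes whose mean was 10 CPM or more, was *PTPN9* for *CDX2* (Pearson *r* = 0.98), *SLC17A4* for *SI* (0.93), *VTN* for *VIL1* (0.97) and *P4HA2* for *TFF1* (0.91). For *TFF3* it was *TINAGL1* (0.94), for *GUCY2C* *SLC44A3* (0.98), for *CDH17* *DPP4* (0.98), for *LGALS4* *HTATIP2* (0.92) and for *FABP1* the pseudogene *RPL13AP5* (0.92). These values describe libraries that share genotype and time.

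The members were set beside other genes of the gut epithelium, grouped by role. Counts of each list are to be read against the shares of all tested genes called, 2.7% higher and 4.09% lower in hILOs and 1.57% and 1.13% in PPs. Among 12 tested genes of brush border structure, *VIL1* included, 4 rose and none fell in hILOs, with a median log2 difference of 0.46. With any 1 of the 4 libraries left out, 0 to 1 of them were called. *MYO7B*, a myosin of the microvillus tip, rose by 0.81 (15.6 and 16.6 to 28.8 and 29.1 TPM, limma adjusted *p* = 0.011), and *PDZK1*, a scaffold of membrane transporters, by 0.70 (limma adjusted *p* = 0.0080). In PPs none of 12 was called in either direction, 1 was higher and 1 lower by the limma adjusted *p* alone, and the median was 0.08. Of 12 tested hydrolases 2 rose and 1 fell in hILOs: beside *SI*, *TREH*, which encodes the trehalose-splitting trehalase, rose by 0.62 (limma adjusted *p* = 0.040), whereas *MEP1B*, which encodes the beta subunit of the protease meprin, fell by 1.16 (40.2 and 40.2 to 17.1 and 17.8 TPM, limma adjusted *p* = 0.0051). In PPs 2 of 8 rose, the peptidases *ANPEP* (log2 0.82, limma adjusted *p* = 0.0095) and *DPP4* (log2 0.62, limma adjusted *p* = 0.0034).

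Genes of absorption moved in both directions in hILOs. Of 14 tested transporters 3 rose and 1 fell. *SLC10A2*, the bile acid transporter of the ileum, rose by 1.43 (46.5 and 48.5 to 128 and 132 TPM, limma adjusted *p* = 0.0024), and *SLC6A19*, a transporter of neutral amino acids, by 1.02 (limma adjusted *p* = 0.028). *SLC51A*, which encodes the alpha chain of the basolateral bile acid exporter, fell by 0.80 (limma adjusted *p* = 0.0083). Of 15 genes of lipid handling, *FABP1* included, 1 rose and 1 fell: *RBP2*, the retinol carrier of enterocytes, rose by 0.65 (1386 and 1389 to 2164 and 2183 TPM, limma adjusted *p* = 0.0024), and *APOA4*, an apolipoprotein of chylomicrons, fell by 0.63 (limma adjusted *p* = 0.0028). In PPs 2 of 13 transporters rose, *SLC51B* (log2 1.04, limma adjusted *p* = 0.013) and the fructose transporter *SLC2A5* (log2 0.92, limma adjusted *p* = 0.042), as did 1 of 13 lipid genes, *APOB* (log2 0.61, limma adjusted *p* = 0.0070). None fell in either list in PPs.

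**Figure D5:**
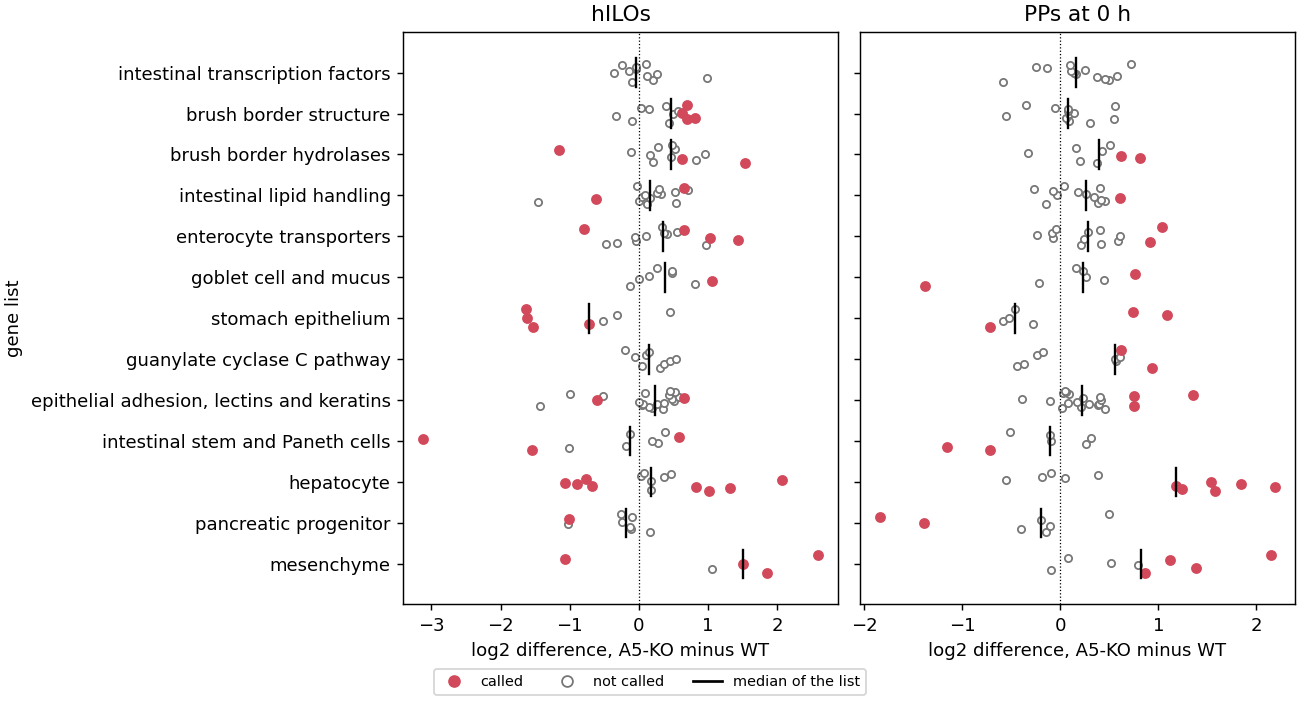
Log2 difference between A5-KO and WT of each tested gene, by list, in hILOs (left) and PPs at 0 h (right). Red points were called, open points were not, and black bars are the medians of the lists; the medians of brush border structure are 0.46 in hILOs and 0.08 in PPs, and those of stomach epithelium -0.71 and -0.46.

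The stomach list, which holds *TFF1*, had 4 of 7 tested genes called lower and none higher in hILOs, with a median of -0.71. With any 1 library left out, 1 to 3 of them were called. *SOX2*, a transcription factor of the foregut, fell by 1.63 (15.7 and 14.7 to 4.32 and 4.18 TPM, limma adjusted *p* = 0.0065), and *VSIG1*, an adhesion gene of the stomach, by 1.61 (limma adjusted *p* = 0.011). *TFF2*, the third trefoil gene, fell by 0.71 (146 and 144 to 81.9 and 94.3 TPM, limma adjusted *p* = 0.016). By the limma adjusted *p* alone 4 genes were lower and 1 was higher. The higher one was *CTSE* (32.5 and 35.8 to 47.8 and 46.4 TPM, log2 0.45, limma adjusted *p* = 0.032). In PPs *TFF1* fell, and *ANXA10* (log2 1.09, limma adjusted *p* = 0.017) and *CTSE* (log2 0.74, limma adjusted *p* = 0.016) rose, 1 and 2 of 7. The secreted stomach genes *GKN1*, *GKN2*, *MUC5AC*, *MUC6* and *PGC* were too low to be tested at either stage.

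Goblet cell genes were incomplete. *MUC2*, the main mucin of the gut, was at 0.419 to 1.03 TPM in the hILO libraries and was not tested at either stage. Of 8 tested genes of this list 1 rose and none fell in hILOs, *CLCA1* (log2 1.06, limma adjusted *p* = 0.017). In PPs, 1 of 7 rose, *AGR2*, which encodes a folding factor of mucins (579 and 576 to 985 and 976 CPM, log2 0.76, limma adjusted *p* = 0.00016), and *TFF3* fell. In the pathway of guanylate cyclase C none of 9 was called in hILOs and 2 of 9 were called higher in PPs, *GUCY2C* and *ABCC4*, an exporter of cyclic nucleotides (log2 0.61, limma adjusted *p* = 0.024). The ligand genes *GUCA2A* and *GUCA2B* did not pass at either stage (limma adjusted *p* between 0.089 and 0.86).

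Of 20 tested genes of adhesion, lectins and keratins, *CDH17* and *LGALS4* included, 1 rose and 1 fell: *CEACAM6* rose (log2 0.66, limma adjusted *p* = 0.010) and *CEACAM1* fell (log2 difference -0.60, limma adjusted *p* = 0.0076) in hILOs. These paralogs are similar in sequence, and reads could have been split between them. By the limma adjusted *p* alone 8 genes of this list were higher and 2 lower in hILOs. *LGALS3* was among the lower ones (504.6 and 502.4 to 358.5 and 344.9 TPM, log2 difference -0.52, limma adjusted *p* = 0.0063). In PPs 3 of 20 rose and none fell, among them the galectin gene *LGALS3* (87.6 and 88.4 to 236 and 218 CPM, log2 1.36, limma adjusted *p* = 3.1e-05) and *CLDN2*, a claudin of pores (log2 0.75, limma adjusted *p* = 0.041). None of 11 tested intestinal transcription factors in hILOs and none of 13 in PPs was called, and by the limma adjusted *p* alone 0 and 2 were, the 2 in PPs being *CDX2* and *HNF4A* (log2 0.46, adjusted *p* = 0.029), both higher. *CDX1* was at 0.229 to 0.644 TPM in hILOs and was not tested there.

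Among genes of intestinal stem and Paneth cells, *LYZ* rose (log2 0.59, limma adjusted *p* = 0.0036), and *EPHB2* (10.6 and 10.3 to 0.332 and 0.302 TPM, log2 difference -3.12, limma adjusted *p* = 0.0036) and *ASCL2* (log2 difference -1.54, limma adjusted *p* = 0.010) fell in hILOs, 1 and 2 of 9 tested. *LGR5*, *OLFM4*, *DEFA5* and *DEFA6* were too low to be tested there. In PPs 2 of 7 fell, *SMOC2* (log2 difference -1.15, limma adjusted *p* = 0.036) and *OLFM4* (log2 difference -0.72, limma adjusted *p* = 0.024).

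Markers of other cell types also differed between the genotypes. Of 14 tested hepatocyte genes, 4 rose and 4 fell in hILOs. *TTR* (log2 1.31, limma adjusted *p* = 0.0011) and *TF* (log2 2.07, limma adjusted *p* = 0.0070) were among those that rose, and *FGG* (log2 difference -1.06, limma adjusted *p* = 0.0035) and *FGB* (log2 difference -0.89, limma adjusted *p* = 0.0021) among those that fell. The summed level of the list went from 22024 and 22088 TPM in WT to 35307 and 35013 TPM in A5-KO. *TTR* made up most of that rise, with 7527 and 7550 TPM in WT against 18674 and 18749 TPM in A5-KO. In PPs 6 of 11 rose and none fell, led by *TTR* (log2 2.19, limma adjusted *p* = 3.1e-05) and *FGB* (log2 1.84, limma adjusted *p* = 0.00063), and the sum went from 1813 and 1929 to 2490 and 2597 CPM. *FABP1*, which hepatocytes also express, was called at neither stage. Of 5 tested mesenchyme genes 3 rose, led by *POSTN* (log2 2.59, limma adjusted *p* = 0.040) and *COL1A2* (log2 1.85, limma adjusted *p* = 0.044), and *VIM* fell (log2 difference -1.07, limma adjusted *p* = 0.0021) in hILOs, where *COL1A1*, *PDGFRA*, *PDGFRB*, *DCN* and *THY1* were too low to be tested, and the sum went from 268 and 262 to 169 and 162 TPM. *VIM* made up most of that sum, with 253 and 254 TPM in WT against 121 and 121 TPM in A5-KO. In PPs 4 of 8 mesenchyme genes rose, led by *POSTN* (log2 2.15, limma adjusted *p* = 3.1e-05) and *COL3A1* (log2 1.38, limma adjusted *p* = 0.00014). Of the pancreatic progenitor list, *GP2* was called lower in hILOs, 1 of 8, and *GP2* (log2 difference -1.84, limma adjusted *p* = 0.00014) and *ONECUT1* (log2 difference -1.39, limma adjusted *p* = 0.0019) were called lower in PPs, 2 of 7. The part of such cells in the differences of the 9 genes was not tested.

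The counts of the other lists also moved when 1 library was left out. In hILOs the hydrolases then had 1 gene called higher and 0 to 1 lower, the transporters 1 and 0 to 1, the genes of lipid handling 1 and 1, and the adhesion list 0 and 0 to 1. The goblet cell list had 0 higher, the stem and Paneth cell list 0 to 1 higher and 0 to 2 lower, the hepatocyte list 2 higher and 2 lower, the mesenchyme list 0 to 1 higher and 1 lower, and the pancreatic progenitor list 0 lower. In PPs at 0 h the hydrolases had 1 to 2 higher, the transporters 1 to 2, the lipid genes 0 to 1, the adhesion list 1 to 3, the guanylate cyclase C pathway 0 to 4, the intestinal transcription factors 0 to 3 and the stomach list 0 to 2 higher and 0 to 1 lower. The stem and Paneth cell list had 0 to 2 lower, the hepatocyte list 5 to 6 higher and the mesenchyme list 3 to 5 higher, while the goblet cell list still had 1 higher and 1 lower and the pancreatic progenitor list 2 lower.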

How the data were processed

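RNA-seq values of 4 hILO and 16 PP libraries were used as deposited. Per the submitters' processing notes and the methods, reads were trimmed with fastp and aligned to hg38 with HISAT2 2.1.0. For hILOs the authors deposited TPM from StringTie. For PPs the authors deposited CPM after removing the spike-ins. The read counter, annotation release and use of strand were not given in the sources used here. The CPM were whole multiples of the value of 1 read (100% of values), which gave back the reads for edgeR 4.0.16 and DESeq2 1.42.0, run as alternatives.

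Genotypes were compared in limma 3.58.1 under R 4.3.3 (eBayes, trend) on log2 values with a pseudocount of 1, for genes whose mean was 1 or more. Slopes were compared in limma on log2 CPM with a pseudocount of 0.1, each genotype having its own intercept and slope. Calls needed a Benjamini-Hochberg adjusted *p* below 0.05 and, for stages, 1.5-fold; all *p* are two-sided. The scripts were tested on simulated data. Coordinates and exons are from GENCODE v44 of GRCh38. With 2 libraries a group, the spread between them limits precision.

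Each comparison names the 9 genes and, from each list, at most 2 genes called in each direction with the largest change. *TFF2*, *HNF4A*, *GUCA2A*, *GUCA2B*, *PDX1*, *NKX6-1*, *INS* and genes too low to test were chosen after their values were seen. The same holds for *CTSE* and *LGALS3* in hILOs. The members and lists were chosen with earlier results of these data known.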

Additional observations from a re-analysis of the deposited data

Results flagged for a closer look

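For 3 of the 9 genes the libraries of A5-KO lay on opposite sides of WT under different conditions; a group of 2 libraries could not be searched for outliers. *CDX2* was above WT in both A5-KO libraries of PPs at 0 h and below it in both of hILOs (log2 difference -0.098) and of PPs at 3 h of actinomycin D (log2 difference -1.46). For the time course the difference was tested: the slopes of *CDX2* differed by -0.681 log2 per h (limma adjusted *p* = 0.036), but the call was lost in several other fits. Without both WT libraries at 3 h the difference was -0.589 (limma adjusted *p* = 0.77), and the adjusted *p* was also above 0.05 with genes of low values kept (0.086), and without WT replicate 2 (0.54), A5-KO replicate 1 (0.40) or A5-KO replicate 2 (0.32). In each of these fits 0 of all genes passed in either direction. *TFF1* was below WT in both A5-KO libraries of PPs at 0 h and above it at 2 h (log2 difference 0.351). *FABP1* was below WT in PPs at 0 h by a very small gap, 99.08 CPM in A5-KO replicate 2 against 99.15 CPM in WT replicate 1. That difference did not pass (limma adjusted *p* = 0.45). *FABP1* was above WT in hILOs (log2 difference 0.119) and in PPs at 2 h (log2 difference 0.220). These reversals of *TFF1* and *FABP1*, and that of *CDX2* between PPs and hILOs, were not tested.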

How the results depend on the processing

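In hILOs *SI* and *TFF1* were called in every alternative, and all 81 values of the 9 genes kept their direction and their call. Median-of-ratios scaling moved the log2 difference of *GUCY2C* from 0.31 to 0.37, that of *FABP1* from 0.12 to 0.18 and that of *CDX2* from -0.10 to -0.03. All-gene counts were 467 higher and 707 lower in the reported fit, 572 and 624 after median-of-ratios scaling, 561 and 583 after quantile normalization, 143 and 187 without a filter on low values, and 71 to 100 higher and 72 to 203 lower with each library left out. In PPs at 0 h, no filter on low values left 0 members called higher and 1 lower, with 87 and 77 of all genes. With each library left out, 0 to 2 members were called higher and 1 to 2 lower, and 125 to 248 of all genes higher and 112 to 192 lower; *LGALS4* lay between -0.15 and 0.32. edgeR called 228 genes higher and 205 lower, and DESeq2 243 and 221.

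Within a condition, the deviations of the same replicate number in WT and in A5-KO correlated by 0.29 in PPs at 0 h. There the numbers may pair the libraries. The correlation was 0.04 in hILOs and -0.02, -0.11 and 0.0002 in PPs at 1, 2 and 3 h, with little sign of pairing. With the replicate block limma called 289 genes higher and 385 lower in hILOs, and 365 and 266 in PPs at 0 h. In PPs at 0 h the block gave a limma adjusted *p* of 3.1e-06 (*CDX2*), 3.2e-06 (*TFF1*) and 5.0e-09 (*TFF3*). For *GUCY2C*, *CDH17* and *VIL1* the limma adjusted *p* was 2.3e-05, 7.2e-07 and 0.00027. *SI*, *LGALS4* and *FABP1* did not pass there (limma adjusted *p* from 0.12 to 0.78), and no call of a member changed. Among slopes the block left 0 genes in either direction and 0 members lower, with 311 higher and 2601 lower at an unadjusted *p* below 0.05, and *CDX2* had an adjusted *p* of 0.053. *GUCY2C* in hILOs had an adjusted *p* of 0.054 in the block.

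All-gene counts of lower slopes were 355 in the reported fit, 165 with a pseudocount of 1 and 91, with 5 higher, after median-of-ratios scaling. Without a filter on low values 0 genes and 0 members passed in either direction (679 higher and 3164 lower at an unadjusted limma *p* below 0.05), and edgeR called 246 lower and 8 higher. With 0 and 1 h only, 51 genes were higher and 3 lower, with 1 member higher (*TFF3*) and 0 lower. With 0 and 3 h only, 291 were higher and 2737 lower, with 1 member higher (*TFF3*) and 1 lower (*CDX2*). In settings chosen after the data were seen, leaving out both WT libraries at 2 h gave 58 higher and 1411 lower. Leaving out both WT libraries at 3 h gave 0 and 0 by limma (226 and 651 at an unadjusted *p* below 0.05), and 0 members. Keeping 0, 1 and 2 h gave 16 higher and 0 lower (547 and 1107 unadjusted), and 0 members lower. With each replicate of a genotype left out, 0 to 18 genes were higher and 0 to 1001 lower, with 0 to 1 members lower.

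Some slope differences changed sign. *CDX2* was at 0.047 with 0 and 1 h only. *GUCY2C* was at 0.017 after median-of-ratios scaling, 0.077 with 0 and 1 h, 0.021 in edgeR, 0.13 without both WT libraries at 3 h and 0.22 with 0, 1 and 2 h. *CDH17* was at -0.021 with 0 and 1 h and -0.013 with 0 and 3 h. *VIL1* was at -0.0057 with 0 and 3 h and -0.020 without both WT libraries at 3 h. With a replicate left out, *VIL1* reached -0.0052 to 0.0058, *GUCY2C* -0.11 to 0.0030, *SI* -0.068 to 0.34 and *LGALS4* -0.029 to 0.36, the last 2 below 0 without WT replicate 1. The causes were not tested.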
